A study of Rattus norvegicus with 6 samples.

Results

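The genes described are those of the mitochondrial ribosomal proteins. They were taken as the rows of the deposited table whose gene name begins with Mrpl or Mrps and a digit, which gave 75 genes of the 19289 listed features, 45 named for the large subunit and 30 for the small subunit. Their messages were measured by RNA sequencing in INS-1E cells, a rat insulinoma line used as a model of the beta cell of the pancreas. One group, called untreated here, held 3 libraries of cells with no treatment, and the other held 3 libraries of cells given uric acid for 24 hours. The labels name neither the dose of uric acid nor a vehicle. INS-1E is a single tumour line, and nothing in the labels says that the replicates came from separate cultures, so every p-value measures only the spread between these libraries, which may be technical.

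Mitochondria translate the few messages of their own DNA on a ribosome of their own, the mitoribosome. Its RNA comes from mitochondrial DNA, while its proteins are encoded in the nucleus, made in the cytosol and imported. The small subunit reads the message and the large subunit joins the amino acids, and both combine proteins kept from bacterial ancestors with proteins that arose in mitochondria. In the beta cell the products of this ribosome, subunits of the respiratory chain and of the ATP synthase, serve the ATP supply that couples glucose to insulin release.

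The summed estimated counts per library ran from 47858248 to 59092982 in the untreated group and from 41191819 to 48875962 in the uric acid group, so the untreated libraries were on average deeper. Beta-cell markers were present at means of up to 49246.8 FPKM (Ins1; a level per transcript length and library total). Of the 10 beta-cell markers listed, edgeR called 0 higher and 2 lower with uric acid, against 4.99% and 2.99% of all tested features. Mafa fell by 0.46 and Isl1 by 0.29 on the log2 scale (edgeR, adjusted p = 0.0129 and 0.0282). All uric acid libraries lay above all untreated ones for 2 of the 10 and below them for 4, against 16.8% and 14.2% of all tested features. The summed level of the 10 ran from 74310.5 to 88275.9 FPKM untreated and from 73034.7 to 85366.4 FPKM with uric acid. Most of that sum came from Ins1 and Ins2 (means of 49246.8 and 17871.8 FPKM), so it does not show changes in the weaker markers. Of 24 markers of other islet, acinar, duct, immune, endothelial and stromal cells, 13 were listed. Gcg, the glucagon gene, stood at 5.46 to 10.6 FPKM over the libraries, with a log2 fold change of 0.06, and the other 12 stayed at or under 1.01 FPKM in every library.

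**Figure D1:**
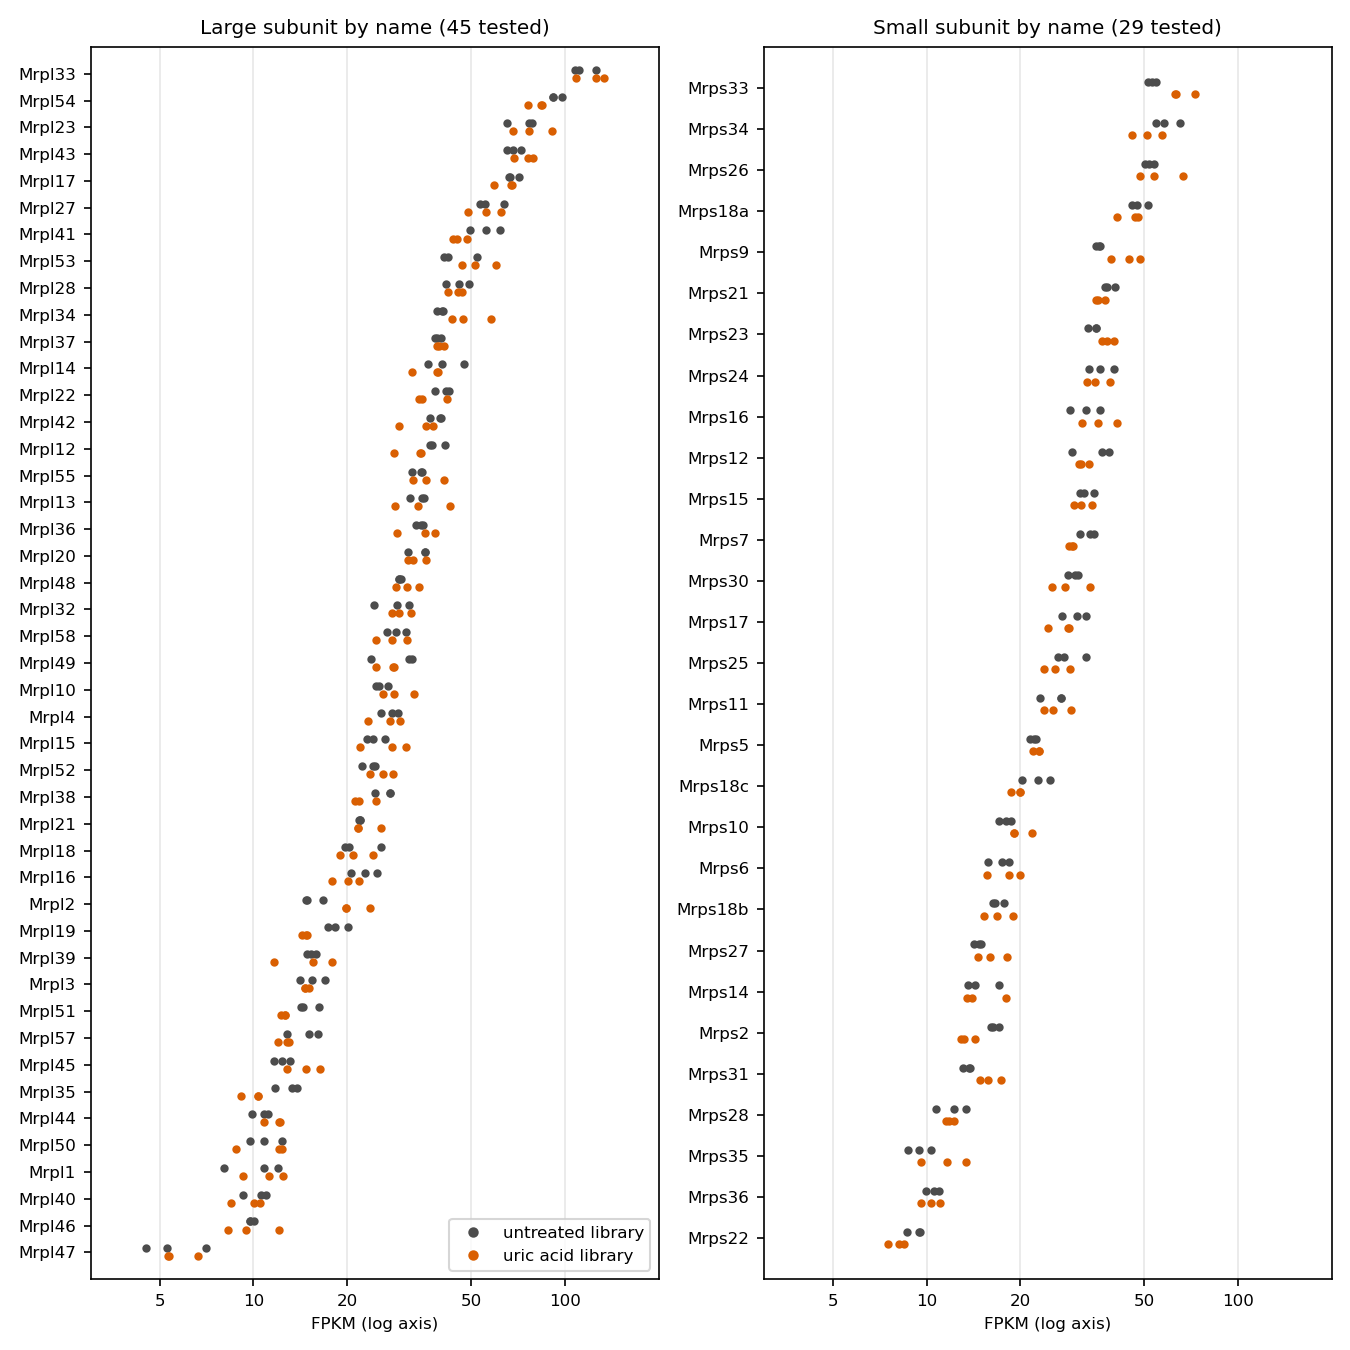
FPKM (log axis) of each tested mitochondrial ribosomal protein gene in the 3 untreated and the 3 uric acid libraries, 1 point per library, in order of the mean level. Means run from 5.69 FPKM (Mrpl47) to 118.6 FPKM (Mrpl33), and for 57 of the 74 genes the points of the groups overlap.

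All but 1 of the genes were expressed above the minimum set for a test, a mean of 1 FPKM over the 6 libraries, and few of them changed. Of the 74 tested, Mrpl2 rose and Mrps2 fell with uric acid (edgeR, threshold an adjusted p of 0.05). That is 1.35% of the members in each direction, where 4.99% of all 12460 tested features were called higher and 2.99% lower. The median log2 fold change of the 74 genes was -0.022 against 0.0013 over all tested features, with 35 values above 0 and 39 below. The median size of the change, whatever its sign, was 0.12 for the members and 0.158 for all features. The values ran from -0.38 (Mrpl35) to 0.45 (Mrpl2). For 72 of the 74 members (97.3%) the 95% confidence interval of the change lay within 1.5-fold in either direction, which held for 69.4% of all features. Members were expressed at a median of 27.8 FPKM and all tested features at 10.4 FPKM, and 4 members lay under 10 FPKM.

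The libraries of a group were about as far apart for these genes as for other genes. The median SD of log2 FPKM among the untreated libraries was 0.096 for the members and 0.11 for all tested features, and among the uric acid libraries it was 0.143 and 0.139. The 3 uric acid libraries lay above all untreated libraries for 7 members (9.46%) and below them for 10 (13.5%). Among all tested features 16.8% lay above and 14.2% below. An unadjusted p under 0.05 was reached by 13 members, or 17.6%, and by 25.7% of all features. With DESeq2, 3 members were called higher (Mrpl2, Mrps33 and Mrps9) and 3 lower (Mrps2, Mrpl19 and Mrpl35), against 7.8% and 6.36% of all features.

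**Figure D2:**
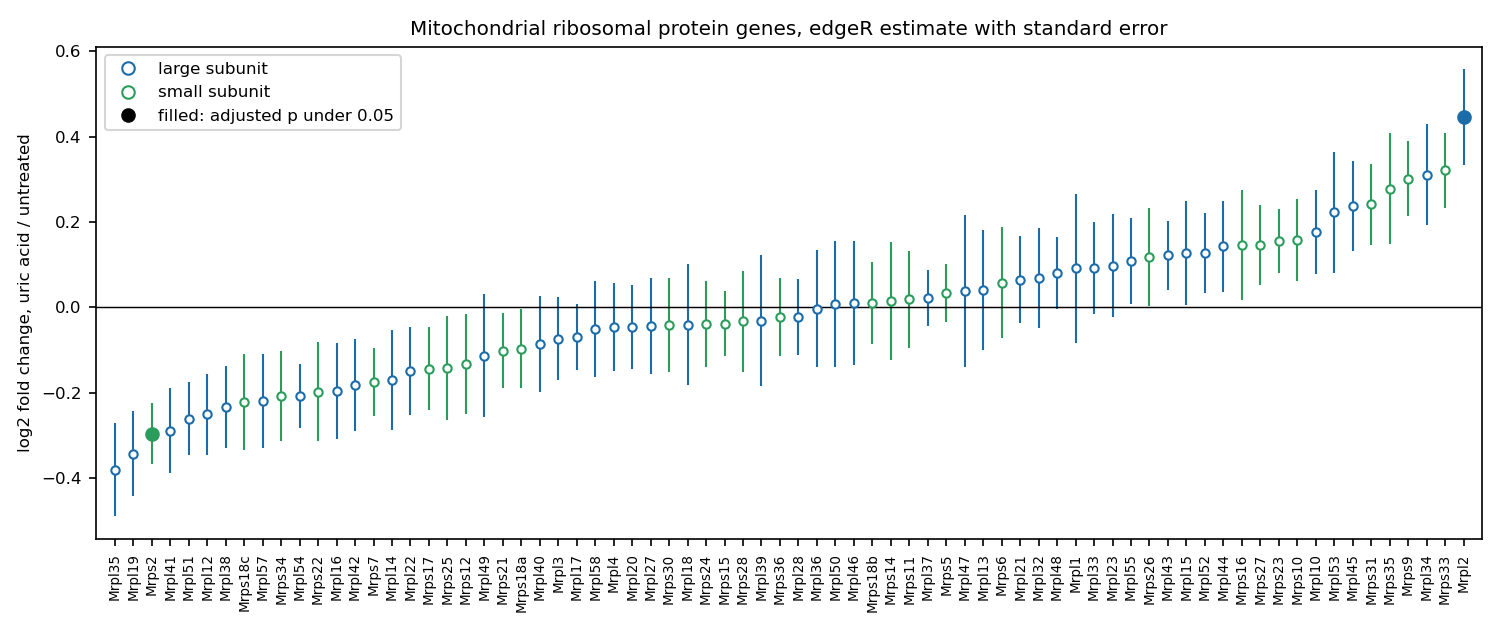
Log2 fold change of uric acid over untreated for the 74 tested genes, in rising order, each point the edgeR estimate and each bar its standard error. Filled points, Mrps2 at -0.30 and Mrpl2 at 0.45, have an adjusted p under 0.05, and 35 of the 74 estimates are above 0.

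In the large subunit Mrpl2 was the 1 gene called. It encodes a protein kept from bacteria that binds the ribosomal RNA close to the site where peptide bonds form. Its level was 14.9, 14.7 and 16.7 FPKM in the untreated libraries, in the order 1, 2, 3, and 23.7, 19.8 and 19.8 FPKM with uric acid. All 3 uric acid libraries were above all untreated ones, and library 1 of the uric acid group was the highest. The means were 15.4 ± 1.11 and 21.1 ± 2.26 FPKM (SD, n = 3 per group), a rise of 36.2% (log2 fold change 0.45 ± 0.11, SE, adjusted p = 0.0445). The call was lost without untreated library 1 (0.138), 2 (0.184) or 3 (0.0597) and without uric acid library 1 (0.156), with the log2 fold change between 0.36 and 0.52, and it was lost when every feature above 0 FPKM was tested (0.0675). The deposited table places Mrpl2 (ENSRNOG00000018057) on the minus strand of chromosome 9 from 16643619 to 16647458, in a build that the sources used here do not give.

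In the small subunit Mrps2 was the 1 gene called. It encodes a bacterial-type protein of that subunit. Its level was 17.1, 16.1 and 16.3 FPKM in the untreated libraries and 13.2, 14.3 and 12.9 FPKM in the uric acid libraries. Every uric acid library was below every untreated library, with a narrow spread in both groups (16.5 ± 0.501 and 13.5 ± 0.752 FPKM, SD, n = 3). The fall was 18.5% (log2 fold change -0.30 ± 0.07, adjusted p = 0.0385). The call was lost without untreated library 1 (0.118), 2 (0.128) or 3 (0.0943) and without uric acid library 1 (0.144) or 3 (0.0637), as well as with limma (0.0577 with a pseudocount of 1) and with every feature above 0 FPKM tested (0.0558). Mrps2 (ENSRNOG00000010164) lies on the plus strand of chromosome 3 from 7051695 to 7058521.

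**Figure D3:**
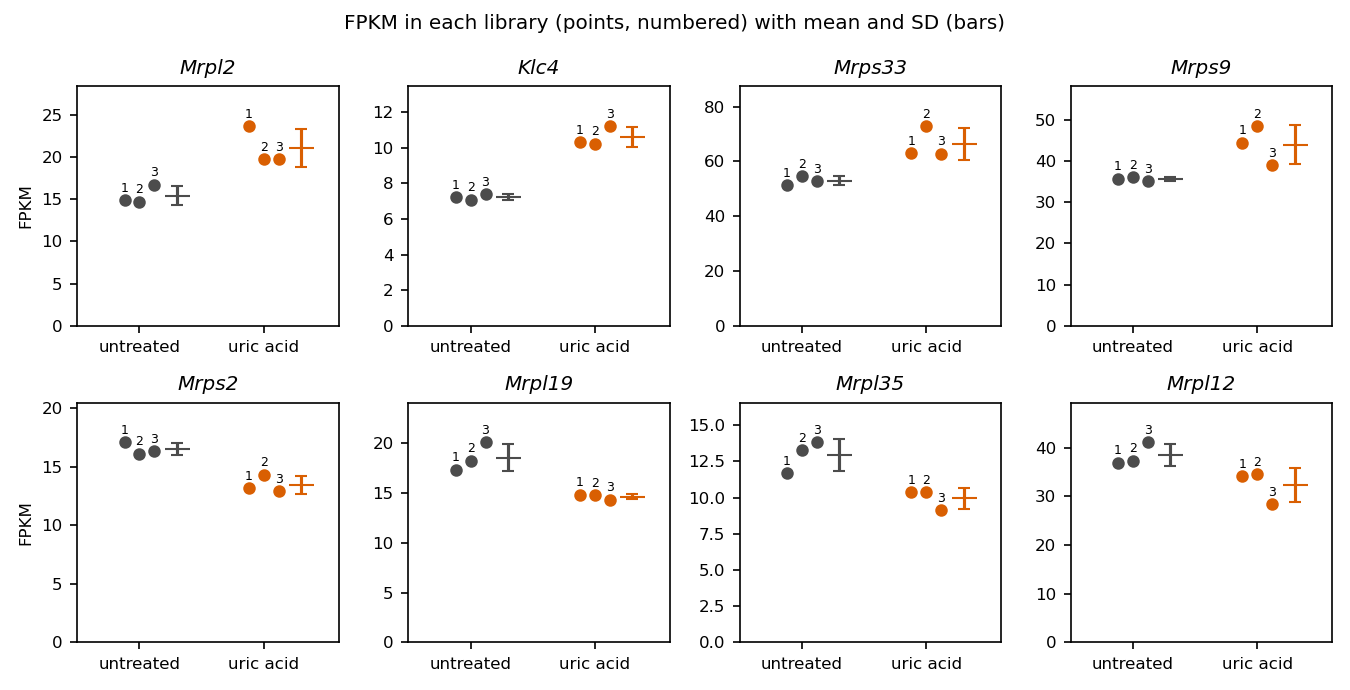
FPKM of 7 mitochondrial ribosomal protein genes and of Klc4, the gene that starts next to Mrpl2, in each library (numbered points), with the mean and SD of each group as bars; every axis starts at 0. The groups do not overlap in any of the 8 panels. Of these genes Mrpl2, Mrps2 and Klc4 have an adjusted p under 0.05. Among the 74 tested members the uric acid libraries lie above for 7 (9.46%) and below for 10 (13.5%). The shares over all tested features are 16.8% and 14.2%.

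To show the sequence in front of the 2 genes that were called, the 250 bases before the transcription start are printed from RefSeq (GRCr8), 5′ to 3′ on the strand of the gene. Capitals mark every match to 1 of 7 motifs searched in these windows. Mrpl2 is chr9:21834608-21834857, minus strand, and Mrps2 is chr3:32200827-32201076, plus strand.
Mrpl2: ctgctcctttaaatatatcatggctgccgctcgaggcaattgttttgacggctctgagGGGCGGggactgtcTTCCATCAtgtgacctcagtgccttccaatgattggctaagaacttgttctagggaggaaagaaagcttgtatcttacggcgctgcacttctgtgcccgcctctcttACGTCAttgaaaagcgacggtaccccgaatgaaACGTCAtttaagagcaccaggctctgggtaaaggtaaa
Mrps2: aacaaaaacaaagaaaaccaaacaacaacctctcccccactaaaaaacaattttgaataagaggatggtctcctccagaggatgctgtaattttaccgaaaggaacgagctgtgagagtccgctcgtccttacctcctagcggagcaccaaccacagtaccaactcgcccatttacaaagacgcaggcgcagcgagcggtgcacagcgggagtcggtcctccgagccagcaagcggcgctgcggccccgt
In the Mrpl2 window the matches are GGGCGG, a GC box, whose first base is at -192 from the start, TTCCATCA at -178 (TGATGNAA on the other strand, the core of a composite C/EBP-ATF element), and ACGTCA at -71 and at -38 (TGACGT on the other strand, the core of a cyclic AMP response element). In the Mrps2 window none of the searched letters occurred.

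The other large-subunit genes with the largest estimates did not pass the test. Mrpl35, a bacterial-type protein, had the lowest estimate, with 11.7, 13.3 and 13.8 FPKM untreated and 10.4, 10.4 and 9.12 FPKM with uric acid (log2 fold change -0.38 ± 0.11, adjusted p = 0.0668). Mrpl19, of the same class, stood at 17.3, 18.3 and 20.1 against 14.8, 14.8 and 14.3 FPKM (-0.34 ± 0.10, 0.0679). The groups did not overlap for either gene, and both were called lower with DESeq2 (0.0163 and 0.0188), Mrpl19 also with limma (0.0447). Mrpl41, which arose in mitochondria, had a log2 fold change of -0.29 (0.112) with groups that did not overlap (49.7, 56 and 61.7 against 45, 43.5 and 48.6 FPKM). On the other side Mrpl34 stood at 38.7, 40.2 and 40.7 FPKM untreated and at 43.5, 58 and 47 FPKM with uric acid (0.31, adjusted p = 0.141), where library 2 of the uric acid group was above the other libraries. For Mrpl45, which sits at the exit of the peptide tunnel and faces the inner membrane, the estimate was 0.24 (0.197) and the groups overlapped.

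Members of the large subunit with a known special task gave small estimates as well. Mrpl10 and Mrpl12 build the stalk that receives the translation factors. Mrpl10 had a log2 fold change of 0.18 (adjusted p = 0.297) and Mrpl12 of -0.25 (0.141), the latter with 36.9, 37.4 and 41.1 FPKM untreated and 34.2, 34.6 and 28.3 FPKM with uric acid. All 3 uric acid values of Mrpl12 were below the untreated ones, while the groups of Mrpl10 overlapped (24.8 to 27 against 26.1 to 32.9 FPKM). Mrpl18, a protein of the central protuberance, had -0.04 (0.892) and Mrpl44, which resembles RNase III, had 0.14 (0.431). Mrpl58, also called ICT1, releases peptides from stalled ribosomes and had -0.05 (0.815). Mrpl33 and Mrpl54 were the most abundant messages of the large subunit, at 118.6 and 87.5 FPKM over all libraries. Mrpl33 had a log2 fold change of 0.09 (0.627) with overlapping groups (108 to 126 against 108 to 133 FPKM). Mrpl54 had -0.21 (0.125) with groups that did not overlap (91.7 to 97.8 against 76.3 to 84.1 FPKM). The least abundant were Mrpl47 at 5.69 FPKM (0.04, 0.919) and Mrpl46 at 9.87 FPKM (0.01, 0.976), whose groups overlapped.

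In the small subunit, 4 genes besides Mrps2 had an unadjusted p under 0.05 or lay among the 3 largest estimates above 0. Mrps33, which arose in mitochondria and was the most abundant message of the subunit, stood at 51.4, 54.6 and 52.8 FPKM untreated and at 62.9, 72.9 and 62.8 FPKM with uric acid (log2 fold change 0.32 ± 0.09, adjusted p = 0.0574). Mrps9, a bacterial-type protein of the head of the subunit, stood at 35.7, 36.1 and 35.1 against 44.5, 48.5 and 38.9 FPKM (0.30 ± 0.09, 0.0691). Their groups did not overlap and both missed the threshold in edgeR, while DESeq2 called them higher (0.0184 and 0.0273). Mrps33 also passed with limma, with a minimum of 5 FPKM and with thinned counts, and Mrps9 without uric acid library 3. Mrps31 had 0.24 (0.152) with groups that did not overlap, and Mrps35 had 0.28 (0.216) with groups that did.

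The remaining small-subunit genes named by rule did not pass. Mrps12, the counterpart of the bacterial protein at the decoding centre, had a log2 fold change of -0.13 (adjusted p = 0.511), with untreated library 1 at 29.3 FPKM below and the other untreated libraries at 36.5 and 38.5 FPKM above the uric acid range of 30.8 to 33.2 FPKM. The genes of the S18 family, related proteins that occupy different places in the ribosome, had estimates on both sides of 0. Mrps18a had -0.10 (0.547), Mrps18b 0.01 (0.96) and Mrps18c -0.22 (0.255), and only Mrps18c had groups that did not overlap, at 20.3 to 25 FPKM untreated and 18.6 to 19.9 FPKM with uric acid. Mrps34, the next most abundant message at 55 FPKM, had -0.21 (0.251) and Mrps22, the least abundant at 8.62 FPKM, had -0.20 (0.322). Mrps30 had -0.04 (0.85). Mrps36, whose protein is now placed in the 2-oxoglutarate dehydrogenase complex, stood at 9.98 to 10.9 FPKM and 9.58 to 11.1 FPKM (-0.02, 0.906). Mrps21l, the 1 gene not tested, was listed at 0.569, 0.547 and 0 FPKM untreated and at 0, 0 and 0.94 FPKM with uric acid. Mrpl9, Mrpl11, Mrpl24 and Mrpl30 were not analysed here.

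The medians of the large and the small subunit were alike. The 45 tested large-subunit genes had a median log2 fold change of -0.022, with 21 values above 0 and 24 below. The 29 small-subunit genes had the same rounded median of -0.022, with 14 above and 15 below. All uric acid libraries lay above all untreated ones for 2 large-subunit genes (4.44%) and below them for 6 (13.3%). In the small subunit these counts were 5 (17.2%) and 4 (13.8%), against 16.8% and 14.2% of all tested features. Summed over genes, the large subunit had 1404, 1488 and 1561 FPKM in the untreated libraries and 1469, 1599 and 1355 FPKM in the uric acid libraries, and the small subunit 768, 804 and 831 against 791, 880 and 755 FPKM. The ratio of the sums was 1.83, 1.85 and 1.88 untreated and 1.86, 1.82 and 1.8 with uric acid (1.85 ± 0.0253 and 1.82 ± 0.0316, SD, n = 3), so the ranges overlapped. An exact permutation test of 3 libraries against 3 cannot go below p = 0.1 and was not used.

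Names and structure do not match for every gene. Mrps18a and Mrps30 are built into the large subunit in mammals, and Mrps36 is left out of both. Placed this way, the 47 large-subunit genes had a median of -0.031 and the 26 small-subunit genes of 0.013. For a split by origin, Mrps18a and Mrps18b of the S18 family were counted as mitochondria-specific. Split this way, the median was -0.012 for the 26 bacterial-type and -0.041 for the 21 mitochondria-specific proteins of the large subunit. In the small subunit it was -0.035 for the 16 bacterial-type proteins and 0.13 for the 10 mitochondria-specific ones. Of those 10 genes 7 had estimates above 0, Mrps33, Mrps35 and Mrps31 in front, and 3 below 0, of which Mrps34 and Mrps22 were the lowest. The 10 genes gave 0 calls in edgeR, 2 with an unadjusted p under 0.05, and 1 call with DESeq2 and with limma (Mrps33, higher). Over all tested features 25.7% had an unadjusted p under 0.05 in edgeR. DESeq2 called 7.8% of all features higher and limma 4.28%.

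Library by library the genes moved together. The median deviation of the 74 genes from their mean over the 6 libraries, on the log2 FPKM scale, was -0.062, 0.00015 and 0.06 in the untreated libraries (1, 2, 3) and -0.023, 0.131 and -0.106 with uric acid. Library 2 of the uric acid group held the highest value of its group for 58 of the 74 genes (78.4%, against 38.3% of all tested features) and library 3 the lowest for 53 (71.6%, against 38.7%). In the untreated group library 1 was lowest for 48 genes (64.9%, against 31.4%) and library 3 highest for 42 (56.8%, against 32.5%). The 6 libraries had the same order in both subunits. The 82 tested proteins of the cytosolic ribosome had the same highest and lowest library in each group, with deviations of -0.114, -0.029 and 0.055 untreated and 0.011, 0.223 and -0.146 with uric acid.

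Transcript length moved with this pattern. Over the 25% of features with the shortest transcripts, as implied by count and FPKM, the median deviations were -0.058, 0.0016 and 0.04 untreated and 0.011, 0.089 and -0.053 with uric acid, and over the longest 25% they had the opposite order within each group, 0.088, 0.014 and -0.069 and then 0.015, -0.095 and 0.06. Of the 74 members 47 were in the shortest class and 1 in the longest, and 71 of the 82 cytosolic proteins were in the shortest. The part of transcript length in the levels of these genes was not tested. Leaving out either of those uric acid libraries moved the median log2 fold change of the members to opposite sides of 0, to -0.096 without library 2 and to 0.045 without library 3.

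**Figure D4:**
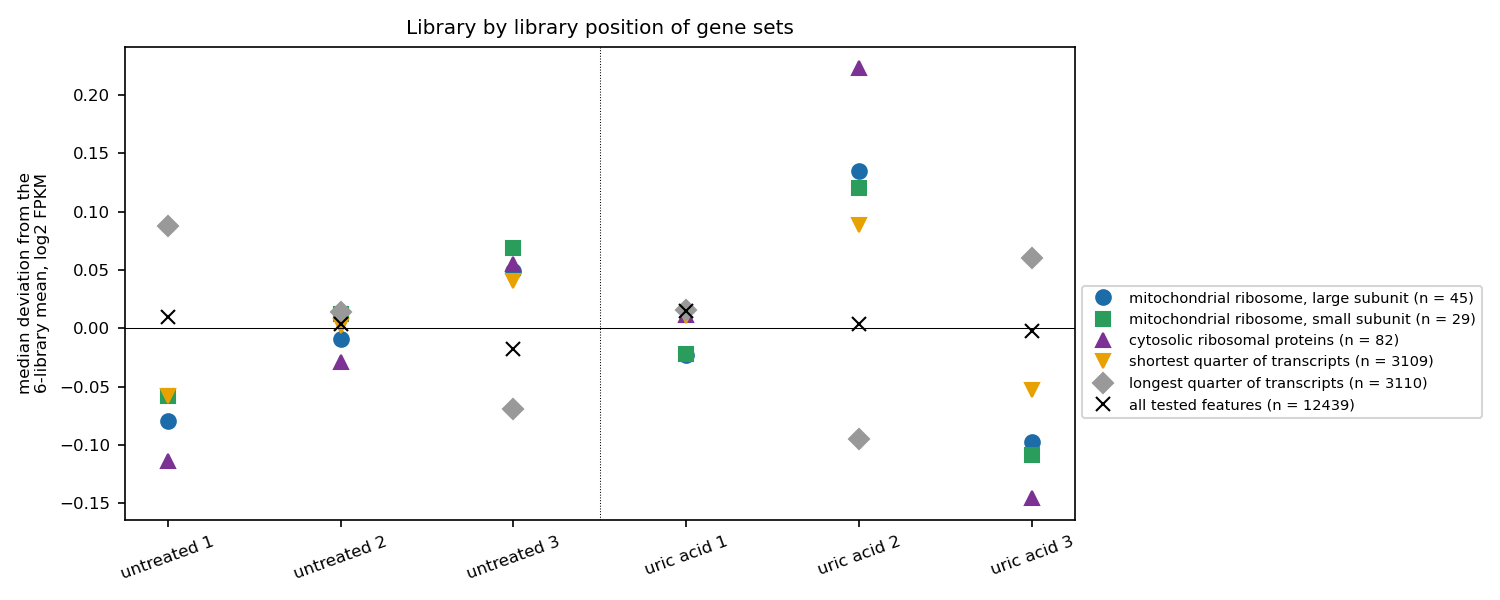
Median deviation from the mean over the 6 libraries (log2 FPKM) of the 45 large-subunit and 29 small-subunit genes, of the cytosolic ribosomal proteins, of the shortest and the longest 25% of transcripts and of all tested features, in each library. Both subunits lie highest in uric acid library 2 and lowest in uric acid library 3, and the longest transcripts lie on the other side of 0 in both.

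Many of these genes lie head to head with another gene. By the deposited coordinates 20 of the 75 members (26.7%) had a gene starting on the other strand within 1000 bases of their own start, against 11.8% of the tested features. Both genes were tested in 18 such pairs, and in 12 of them (66.7%) the changes had the same sign, as they had in 347 of the 654 such pairs among all tested features (53.1%). Of the partners 3 passed the test, all of them higher with uric acid, where 4.99% of all features were called higher. The partners named below were picked after their values were seen.

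The pair of Mrpl2 and Klc4 was the 1 pair in which both genes were called. Klc4, a kinesin light chain gene, starts 140 bases from Mrpl2 on the opposite strand. It stood at 7.21, 7.08 and 7.38 FPKM untreated and at 10.3, 10.2 and 11.2 FPKM with uric acid, with no overlap (log2 fold change 0.55 ± 0.09, adjusted p = 0.00817). The gene models of Mrpl2 and Klc4 do not overlap in the table. Mrpl43 and Twnk, which encodes the helicase of mitochondrial DNA, start 47 bases apart and do overlap. Twnk rose by 0.84 while Mrpl43 stood at 65.1, 68.3 and 72.3 against 79.1, 76.1 and 68.9 FPKM (0.12, adjusted p = 0.378). Ppp1r10 starts 584 bases from Mrps18b and rose by 0.45 (0.0171), beside 0.01 for Mrps18b. Mrpl46 and Mrps11 are members of different subunits that start 72 bases apart, and both gave estimates near 0 (0.01 and 0.02). In all, 8 members overlap a feature on the other strand (Mrpl13, Mrpl21, Mrpl43, Mrpl47, Mrpl49, Mrpl57, Mrps18a and Mrps7), and their values are uncertain because the sources used here do not say which strand was counted.

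**Figure D5:**
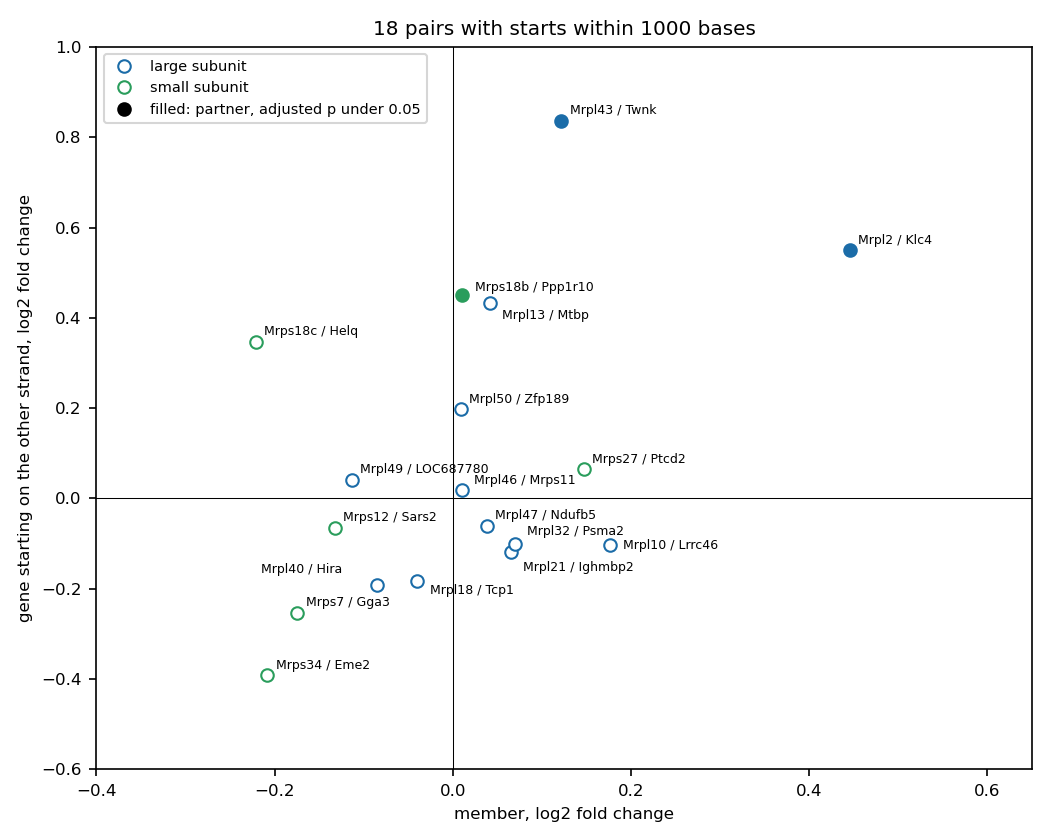
Log2 fold change of each member (x axis) and of the gene that starts within 1000 bases on the other strand (y axis) for 18 pairs in which both were tested, the pair of Mrpl46 and Mrps11 drawn once. In 12 pairs the signs are the same; filled points are the 3 partners with an adjusted p under 0.05, Twnk, Klc4 and Ppp1r10.

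Nuclear genes for mitochondrial proteins often carry sites for NRF1, for ETS factors such as GABPA and for YY1 in their promoters. RefSeq promoter windows (GRCr8, 250 bases before to 50 after the start) were matched by symbol for 59 of the 75 genes and searched on both strands. The promoters they are set against were all RefSeq promoters, not only those of features tested here. The ETS letters CCGGAAG were in 20 of the 59 windows (33.9%, against 9.22% of all 27457 promoters), the YY1 letters AAGATGG in 16 (27.1% against 7.3%) and the NRF1 letters GCGCANGCG in 10 (16.9% against 6.26%). For many of the 16 genes the YY1 letters lay after the start on the strand of the gene, as at 19 in Mrps30, 25 in Mrpl46 and 29 in Mrps18b. For others they lay before it, as at -15 in Mrpl36. These letters contain ATG, and whether they belonged to a coding sequence was not tested. GGGCGG, the GC box, was in 30 (50.8% against 34.9%). The E-box CACGTG was in 5 (8.47% against 6.65%), TGACGT in 6 (10.2% against 8.22%) and TGATGNAA in 2 (3.39% against 3.82%), Mrpl2 and Mrps6. The NRF1 letters and the E-box can read the same on both strands, so 1 place can give 2 matches, and neighbouring GC boxes can share bases. Among 64 promoters of cytosolic ribosomal proteins the ETS letters were in 31.2%, the YY1 letters in 15.6% and the NRF1 letters in 12.5%. The GC box was in 57.8% of them, the E-box in 7.81%, TGACGT in 15.6% and TGATGNAA in 3.1%. For the GC box and TGACGT these shares were above those of the members.

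At least 2 of the NRF1, ETS and YY1 motifs began before the start in 6 promoters, those of Mrpl32, Mrpl36, Mrpl48, Mrpl52, Mrpl57 and Mrps18b. The last 150 bases before the start are printed for 3 of them as examples of these combinations, with capitals on the matches to all 7 motifs. Mrpl36 is chr1:31795122-31795271, minus strand, Mrpl52 is chr15:31852786-31852935, plus strand, and Mrpl57 is chr15:36086307-36086456, plus strand.
Mrpl36: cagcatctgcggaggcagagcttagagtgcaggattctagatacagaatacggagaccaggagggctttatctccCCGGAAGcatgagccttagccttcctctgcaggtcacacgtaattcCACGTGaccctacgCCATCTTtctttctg
Mrpl52: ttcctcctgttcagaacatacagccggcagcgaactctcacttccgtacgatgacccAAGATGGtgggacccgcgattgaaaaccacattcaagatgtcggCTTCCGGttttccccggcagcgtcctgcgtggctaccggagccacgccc
Mrpl57: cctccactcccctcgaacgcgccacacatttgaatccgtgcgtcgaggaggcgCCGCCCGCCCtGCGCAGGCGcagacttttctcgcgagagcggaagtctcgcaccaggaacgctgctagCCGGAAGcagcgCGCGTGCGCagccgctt
Mrpl36 holds the ETS letters at -75, an E-box at -29 and the YY1 letters, reversed, at -15. Mrpl52 holds YY1 letters at -93 and ETS letters, reversed, at -49, and Mrpl57 holds NRF1 letters at -86 and -17 around ETS letters at -29, after 2 overlapping GC boxes. None of the 3 genes was called, with log2 fold changes of -0.0028 (Mrpl36), 0.13 (Mrpl52) and -0.22 (Mrpl57). Members with and without a motif had median log2 fold changes of 0.0039 and 0.0088 for the ETS letters, 0.01 and -0.031 for the YY1 letters, 0.04 and -0.0028 for the NRF1 letters, 0.013 and -0.022 for the GC box, -0.045 and 0.013 for the E-box and 0.019 and 0.0088 for TGACGT. For TGATGNAA they were 0.25 and -0.0028, the first over 2 members of which Mrpl2 is 1.

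The factors that bind such sites, and the genes that work beside the mitoribosome, were followed in 7 lists with 105 named genes, of which 100 features were tested, 4 of them called higher and 2 lower with edgeR, shares near those of all tested features (4.99% and 2.99%). Among regulators in the nucleus, Pprc1, a coactivator of the PGC-1 family, fell in all uric acid libraries, from 17.4, 15 and 14.8 FPKM to 9.21, 8.29 and 9.16 FPKM (log2 fold change -0.82 ± 0.08, adjusted p = 0.000962). Nrf1 stood at 11.8, 11 and 9.94 against 14.5, 19.1 and 12.7 FPKM, with no overlap but an adjusted p of 0.0616 (0.50 ± 0.14). Gabpa had a log2 fold change of 0.21 (0.108), and Yy1, named as the third factor searched above, had 0.0027 (0.987). Of the 7 regulators tested, edgeR called 0 higher and 1 lower (3 with an unadjusted p under 0.05) and DESeq2 1 in each direction, Nrf1 being the higher one (0.00776), with a median of 0.0027.

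Of the calls in these lists, 2 were genes that maintain or transcribe mitochondrial DNA. Twnk rose from 4.89, 5.11 and 3.79 FPKM to 7.57, 8.89 and 8.17 FPKM (0.84 ± 0.13, adjusted p = 0.00625), with the overlap with Mrpl43 given above. Mterf2, a protein of the MTERF family that binds mitochondrial DNA, rose from 4.24, 3.57 and 4.2 FPKM to 5.97, 7.12 and 5.69 FPKM (0.64 ± 0.15, 0.0314). Tfam, which packs mitochondrial DNA and starts its transcription, stood at 43.1, 45 and 46.1 against 57.2, 58.9 and 49.7 FPKM, with no overlap (0.30 ± 0.08, 0.0521). Polrmt, the polymerase, had -0.12 (0.393). Over the 10 genes of this list edgeR called 2 higher and 0 lower (5 with an unadjusted p under 0.05), and the median was 0.13. DESeq2 called 3 of them higher and 0 lower. Over all tested features 25.7% had an unadjusted p under 0.05 in edgeR, and DESeq2 called 7.8% higher and 6.36% lower. The 13 messages of mitochondrial DNA, which the mitoribosome translates, gave 0 calls in either direction with edgeR, DESeq2 and limma (2 with an unadjusted p under 0.05 in edgeR) and a median of 0.092, in libraries made from polyadenylated RNA.

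Assembly and translation factors gave 1 call each in edgeR. DESeq2 called 4 of 27 tested assembly factors higher and 0 lower, and 1 of 17 tested translation factors higher and 2 lower. Over all tested features DESeq2 called 7.8% higher and 6.36% lower. Ngrn, a factor needed for the RNA of the large subunit, rose from 19.2, 20.2 and 21.8 FPKM to 33.3, 40.5 and 26.5 FPKM (0.71 ± 0.14, adjusted p = 0.0206), the 1 edgeR call among 27 tested assembly factors, whose median was 0.13. Letm1, an ion exchanger of the inner membrane that also binds mitoribosomes, fell from 21, 18.3 and 15.7 FPKM to 13.2, 11.6 and 13.1 FPKM (-0.54 ± 0.11, 0.0202), the 1 edgeR call among 17 tested translation factors, whose median was 0.023. Tufm, the elongation factor, had -0.07 (0.525). The 21 tested features for mitochondrial tRNA synthetases and their partners had a median of -0.056. The 5 further mitoribosome proteins that carry other names gave 0 calls with each of the 3 tools (0 with an unadjusted p under 0.05) and a median of -0.02, with Dap3 of the small subunit at 0.0043 (0.981).

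With 1 library left out several of these calls were lost, in fits that have fewer residual degrees of freedom and in most cases made fewer calls over all features. Pprc1 and Twnk were called with any 1 library left out. Ngrn and Letm1 were lost without untreated library 1 (0.0818 and 0.069) or 2 (0.0969 and 0.0871) and without uric acid library 1 (0.0767 and 0.0731). Mterf2 was lost in every such fit but the one without uric acid library 3, at 0.0669 to 0.146. The log2 fold changes in these fits were 0.55 to 0.86 for Ngrn, -0.63 to -0.43 for Letm1 and 0.54 to 0.71 for Mterf2. Tfam and Nrf1 passed without uric acid library 3 (0.0192 and 0.0203). Over all 18 alternatives Tfam was called in 5 and Nrf1 in 2. The pathway calls were 8 higher without uric acid library 3, where 5.67% of all features were called higher. They were 1 higher without untreated library 1 or 2 and without library 1 of the uric acid group, where the shares over all features were 2.04%, 1.32% and 1.8%.

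The proteins of the cytosolic ribosome, the set of genes most like the members, gave 0 calls in either direction among 82 tested with edgeR (3 with an unadjusted p under 0.05) or DESeq2, and 1 higher with limma. Their median log2 fold change was 0.063, with 59 values above 0 and 23 below, and their median level was 353 FPKM. Without uric acid library 2 their median was -0.053 and without uric acid library 3 it was 0.14, a swing in the same direction as that of the mitochondrial proteins.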

How the data were processed

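Per the labels' protocols, polyadenylated RNA of INS-1E cells was made into libraries with dUTP in the second strand and sequenced in pairs. The tools listed in the submitters' processing notes are StringTie 1.3.4d, HISAT2 2.0.4, cutadapt 1.9, edgeR and DESeq2, with no roles, and the sources used here do not give the genome build. The deposited table holds FPKM as the authors computed them and, per the file headers, a count column for each library, which holds estimated counts (whole numbers that follow aligned bases, so that a read pair can add up to 4 counts).

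Features with a mean of at least 1 FPKM were tested (12460, with 6829 left out) by edgeR 4.0.16 (R 4.3.3; quasi-likelihood F test, TMM, no covariate), with Benjamini-Hochberg adjustment over all 12460 and a threshold of 0.05, two-sided. The step was tested on simulated data first. The precision was limited by a common coefficient of variation of 0.127 and a median standard error of 0.113 (log2). A standard error is the log2 fold change divided by the root of its F value. Alternatives used limma 3.58.1 on log2(FPKM + 1), DESeq2 1.42.0, other scalings and filters, thinned counts, counts divided by 4, a replicate block and each library left out.

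The members and the gene lists were chosen with earlier results of these data known. Genes were named by a rule: the members called, the 3 largest estimates of each subunit and direction, the 2 highest and lowest levels of each subunit, a fixed set of members and regulators, up to 4 called genes of each list, and members not tested. Mrps31, Mrps11, Mrpl43, Mrps6, Mrpl36, Mrpl52, Mrpl57, Yy1 and the neighbouring genes fall outside it and were named after their values were seen. The lists were 5 mitoribosome proteins with other names, assembly factors, translation factors, tRNA synthetases, mitochondrial DNA upkeep, its 13 messages and nuclear regulators. The result of 1 gene of these lists is not reported here.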

Additional observations from a re-analysis of the deposited data

How the results depend on the processing

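Under the alternatives the number of members called stayed between 0 and 3 in each direction. DESeq2 gave 3 higher and 3 lower (2 of the large subunit lower, 2 of the small subunit higher) and 10 higher in the pathway lists. Limma with a pseudocount of 1 or of 0.1 gave 2 higher and 1 lower, with 1 of the large subunit lower, 1 of the small subunit higher, 0 of the small subunit lower and 1 cytosolic ribosomal protein higher. With every feature above 0 FPKM tested the counts were 0 and 0 in the members and in both subunits, while a minimum of 5 FPKM and thinned counts each gave 2 higher, 1 of them in the small subunit. With 1 library left out, members called higher ranged from 0 to 2 and lower from 0 to 1, those of the large subunit higher from 0 to 1, of the small subunit from 0 to 1 in each direction, the pathway lists from 1 to 8 higher and 1 to 2 lower, and the cytosolic proteins from 0 to 1 higher. Over all features the shares called higher and lower were 7.8% and 6.36% with DESeq2 and 4.28% and 2.31% with limma (pseudocount of 1). They were 2.42% and 1.39% with every feature above 0 FPKM, 6.76% and 3.64% with a minimum of 5 FPKM, and 4.95% and 2.93% with thinned counts. With 1 library left out these shares ran from 1.32% to 5.67% higher and from 0.53% to 3.74% lower. The large minus small median log2 fold change, 0.00034 as reported, was 0.016 with thinned counts, -0.044 with subunits by structure and -0.023 to 0.024 with 1 library left out. The median log2 fold change, all members, ran from -0.096 to 0.045. Mrpl2, Mrps2, Klc4, Ngrn, Letm1, Mterf2, Twnk and Pprc1 kept their direction in all 18 alternatives, in which Mafa, Isl1 and Ppp1r10 were not followed. Mrpl2 was called in 12 of 18 and Mrps2 in 9 of 18. Uncalled genes with estimates near 0 changed sign in some, Mrpl46 in 7, Dap3 in 6 and Mrps18b in 4 of 18. A fit without 1 library has fewer residual degrees of freedom.

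The titles number the replicates, and the labels do not say whether same-numbered libraries of the 2 groups belong together. Deviations of same-numbered libraries from their group means correlated at 0.0684, -0.0492 and -0.19 across genes. These values cannot decide it, because other differences between libraries, such as those that go with transcript length, enter the same deviations. With the replicate block 0 members were called higher and 0 lower, 0 in the large subunit higher, 0 in the small subunit lower, and 1 higher and 1 lower in the pathway lists; over all features 223 were higher and 99 lower.

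With 3 libraries in each group the median standard error was 0.106 for the members, and estimates as far from 0 as -0.38 (Mrpl35) were not called. Untreated libraries were deeper on average, and every tested member had at least 469 estimated counts in each library. A read pair may give up to 4 of these counts, which is inferred from the values. The sources used here do not say which strand was counted.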
